A study of Arabidopsis thaliana with 4 samples.

Results

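PORA (AT5G54190), PORB (AT4G27440) and PORC (AT1G03630) are the 3 protochlorophyllide oxidoreductase genes of Arabidopsis thaliana, taken by their locus identifiers from tables of 27416 gene models. The tables come from Col-0 wild-type (WT) seedlings, 2 samples grown in the dark and 2 under red light at 60 μmol/m2/s. Seeds of both groups were held at 4 °C for 4 days on 1/2 MS medium with 1% sucrose and received 12 h of white light before 4 days in darkness or red light, a growth time of 4.5 days in all. Poly(A) RNA from seedlings was sequenced to find genes regulated by red light. Each condition has 1 column of reads and 1 of RPKM (reads scaled to the coding length of the gene and to the column's total), and nothing used here says how the 2 samples entered it. No value below therefore has a replicate error and no difference has a replicate check. Intervals in brackets are exact 95% intervals (Clopper-Pearson for ratios and shares, Poisson for levels). They treat reads as independent and cover counting error only.

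Protochlorophyllide oxidoreductase reduces protochlorophyllide to chlorophyllide, the step of chlorophyll synthesis in flowering plants that itself needs light. In a dark-grown seedling the enzyme waits in the etioplast in a complex with its pigment and NADPH, largely within the prolamellar body, and works as soon as the seedling is lit. PORA and PORB are best known from etiolated tissue, and PORB and PORC from green tissue. The enzymes belong to the short-chain dehydrogenase family.

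The 3 gene models differed in intron number and little in length. PORA lay on the minus strand of chromosome 5 (chr5:21990864-21992814, TAIR10.1) with 5 exons. PORB lay on the plus strand of chromosome 4 (chr4:13725546-13727440) with 4 exons, and PORC on the plus strand of chromosome 1 (chr1:907523-909650) with 5. The coding sequences were 1218 bases for PORA and 1206 bases for PORB and for PORC, so proteins of 405, 401 and 401 residues. The first 2 coding parts of PORA, of 54 and 111 bases, stood where PORB had a single part of 162 bases, and the last coding part had 156 bases in each gene. No coding base lay inside the span of another annotated gene. The span of AT1G03620, on the opposite strand, covered 121 bases at the start of PORC, all before its coding sequence, and that of AT4G27450 covered 71 bases of PORB outside the coding sequence.

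**Figure D1:**
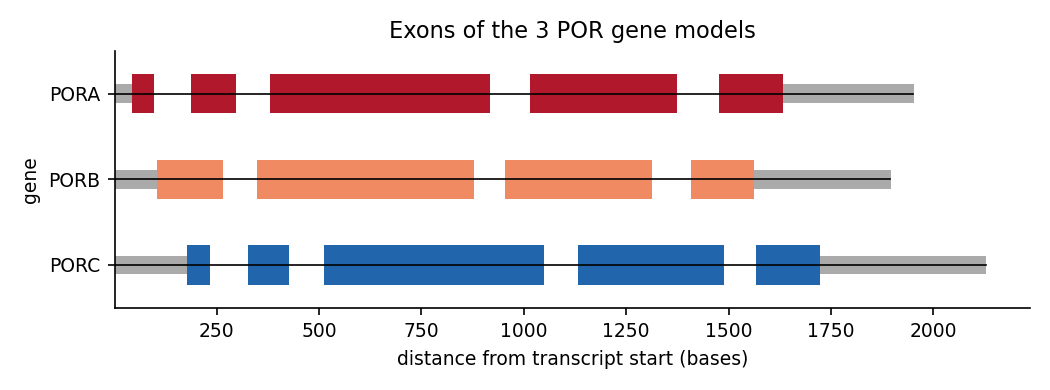
Exon maps of the gene models PORA, PORB and PORC, plotted by distance from the annotated transcript start in bases. Coloured blocks are coding, thin grey blocks are untranslated and the line is intron; PORB has 4 exons and the other two genes 5.

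The proteins translated from these models showed which copies are closest, and so how far reads can be told apart. PORA and PORB were identical at 353 aligned residues (88.0%), PORA and PORC at 309 (77.6%) and PORB and PORC at 307 (77.3%). The first 60 residues of PORA, which hold the region that targets the protein to the plastid, matched PORB at 79.7% and PORC at 48.2%, against 89.5% and 82.5% over the rest. In the coding bases PORA and PORB were 83.0% identical, and PORC was 72.9% identical to PORA and 72.8% to PORB. The longest run of bases that PORA and PORB shared was their first 44 coding bases, shown because a read lying wholly within such a run matches both genes.
shared start of PORA and PORB: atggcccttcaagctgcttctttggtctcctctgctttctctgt
Of 1188 words of 31 bases in the PORA coding sequence, 14 occurred in another gene's coding sequence (1.18%). The count was 14 of 1176 for PORB and 0 of 1176 for PORC. The last coding parts, of equal length in the 3 genes, are printed to show where the genes differ in that stretch. Capitals mark the 47 positions at which the 3 genes are not all equal, at chr5:21991183-21991338 (minus strand), chr4:13726952-13727107 (plus) and chr1:909090-909245 (plus) of TAIR10.1.
PORA: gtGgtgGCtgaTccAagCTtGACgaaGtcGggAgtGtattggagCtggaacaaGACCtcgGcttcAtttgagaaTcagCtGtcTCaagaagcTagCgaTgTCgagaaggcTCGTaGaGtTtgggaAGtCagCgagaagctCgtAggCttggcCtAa
PORB: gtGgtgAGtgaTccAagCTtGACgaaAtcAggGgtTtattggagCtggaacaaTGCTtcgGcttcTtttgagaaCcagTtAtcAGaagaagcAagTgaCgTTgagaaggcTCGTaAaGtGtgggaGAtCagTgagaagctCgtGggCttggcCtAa
PORC: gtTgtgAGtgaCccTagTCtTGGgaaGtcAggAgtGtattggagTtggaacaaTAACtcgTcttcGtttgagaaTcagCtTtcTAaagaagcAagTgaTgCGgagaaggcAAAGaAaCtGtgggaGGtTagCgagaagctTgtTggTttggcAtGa
Within these 156 bases PORA differed from PORB at 25 positions and from PORC at 36, and PORB differed from PORC at 38.

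The 3 genes exchanged places between darkness and red light. PORA was at 878 RPKM in darkness (870.1 to 887) and 55.6 RPKM in red light (53.3 to 57.9), from 43975 and 2269 reads. PORB was at 827 RPKM in darkness (819 to 835) and 196 RPKM in red light (192 to 200.3), from 41015 and 7921 reads. PORC was at 8.94 RPKM in darkness (8.12 to 9.81) and 86.2 RPKM in red light (83.3 to 89.1), from 443 and 3483 reads. In darkness PORA and PORB stood close together and PORC far below both. In red light the order was PORB, PORC, PORA.

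**Figure D2:**
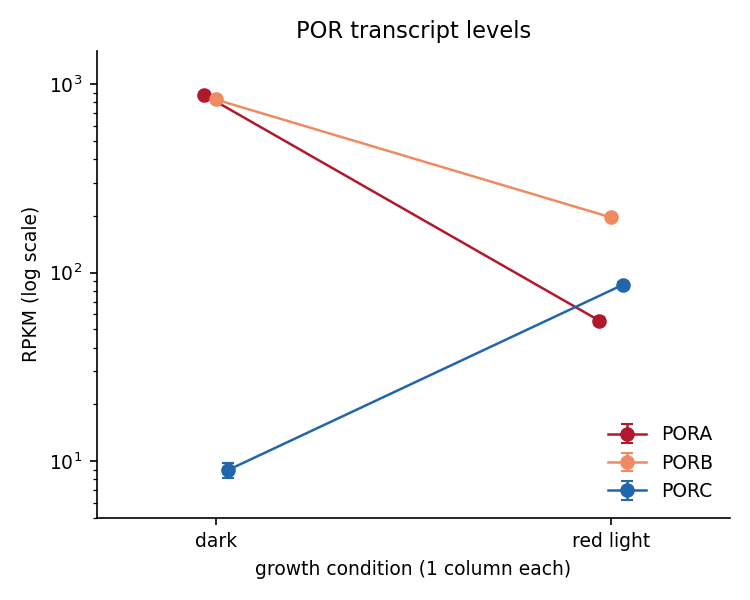
RPKM (log scale) of PORA, PORB and PORC in the dark and red-light columns, with 95% counting intervals, most of them smaller than the points. The PORA and PORC lines cross, and PORA falls from 878 to 55.6 RPKM while PORC rises from 8.94 to 86.2 RPKM.

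A gene was called where RPKM + 1 differed 2-fold or more and the higher condition had at least 10 RPKM. PORA and PORB were called lower in red light, as were 5.35% of the 12625 genes that could be called, and PORC was called higher, as were 8.69%. PORA was 15.8-fold lower in red light (15.2 to 16.5) and PORB 4.22-fold lower (4.12 to 4.33). PORC was 9.64-fold higher (8.73 to 10.7). On log2(RPKM + 1) the changes were -3.96, -2.07 and 3.13, beside a median of -0.11 over the 12625 genes. PORA had the 20th largest fall of these genes and PORB the 115th, and PORC had the 104th largest rise. The PORC value rests on the fewest reads, 443 in darkness, and its interval is the widest of the 3. Since whole seedlings were used, fewer POR-expressing cells and less POR RNA per cell cannot be told apart.

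Among all 27416 gene models, ranked by RPKM within a column, the places moved in the same way. PORA was 128th in darkness and 3335th in red light. PORB was 135th in darkness and 877th in red light, so it stayed among the 3.20% of models with the highest levels. PORC was 12271st in darkness, near the middle of the list, and 2172nd in red light.

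**Figure D3:**
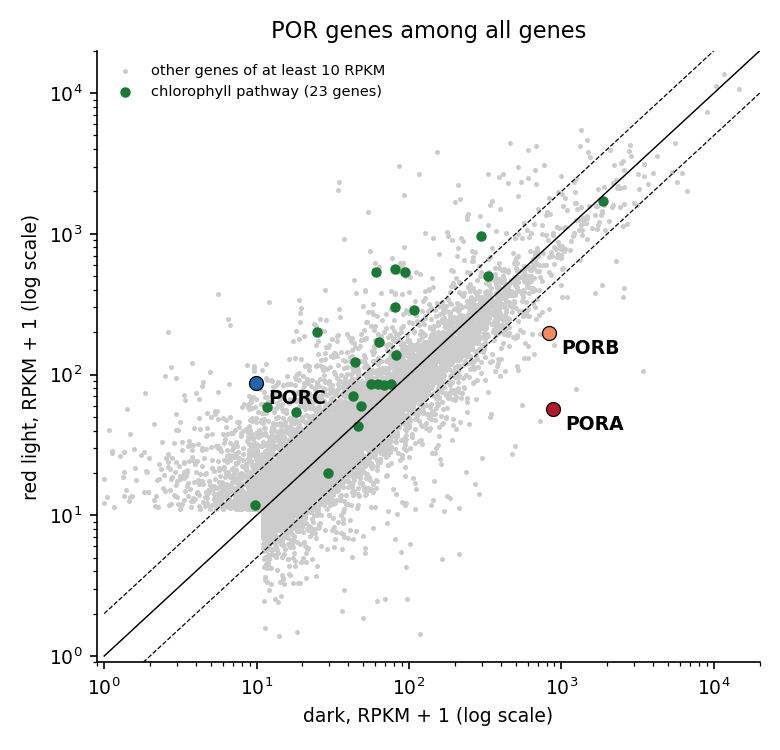
Each point is a gene of at least 10 RPKM in either column, plotted as RPKM + 1 in darkness (x, log scale) and red light (y, log scale); the solid line marks equal values and the dashed lines a 2-fold difference. PORA and PORB lie below the lower dashed line, PORC above the upper one, and the 23 other chlorophyll synthesis genes (green) lie above the lower dashed line.

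The make-up of the family's transcripts differed between the conditions. In darkness PORA held 51.2% of the summed RPKM of the 3 genes, PORB 48.3% and PORC 0.521%. In red light PORA held 16.5%, PORB 58.0% and PORC 25.5%. Shares of reads, which carry counting intervals, were nearly the same: PORC took 0.519% of 85433 reads in darkness (0.471 to 0.569) and 25.5% of 13673 reads in red light (24.7 to 26.2). The PORC share was thus 49.0 times as large in red light, the PORA share 0.321 times and the PORB share 1.203 times as large. PORB gained 9.77 percentage points of the family's expression while its own level fell, and PORA lost the most.

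**Figure D4:**
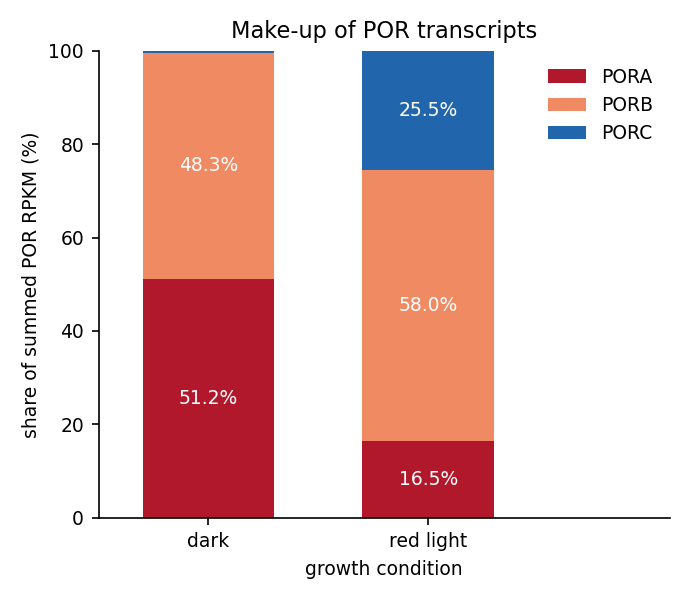
Stacked bars of the share of the summed RPKM of PORA, PORB and PORC (%) in darkness and red light; each bar adds to 100%. The PORC share is too thin to label in darkness (0.521%) and is 25.5% in red light.

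Ratios between members within a column do not depend on how the columns were scaled to each other. The ratio of PORA to PORB was 1.06 in darkness (1.05 to 1.08) and 0.284 in red light (0.271 to 0.297). With reads taken as independent, the small excess of PORA in darkness lies beyond counting error. No replicate spread is available to set it against. The ratio of PORC to PORA was 0.0102 in darkness (0.00924 to 0.0112) and 1.55 in red light (1.47 to 1.64), a 152-fold difference between the columns. For PORC to PORB it was 0.0108 and 0.440, a 40.7-fold difference.

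Together the 3 genes reached 1715 RPKM in the dark against 338 RPKM under red light. Their summed reads made up 0.208% of the dark column and 0.0408% of the red-light column, 5.10-fold lower (5.004 to 5.19). The gain of PORC, 77.2 RPKM, was small beside the loss of PORA and PORB, 1454 RPKM.

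The bases before the transcript starts of PORA and PORB are shown because these genes changed in the same direction. Over 300 bases before the start both strands were searched for the G-box CACGTG, for the related E-box CACATG, and for AAATATCT, the core of the evening element. The search also took the I-box GATAAG, the short motif ATGTA, the motif CCAATG around a CCAAT box, and the TATA-box letters TATAAA. No motif contains another. Capitals mark matches to any of these or to their reverse complements in the 180 bases next to the start, at chr5:21992815-21992994 (minus strand) for PORA and chr4:13725366-13725545 (plus strand) for PORB, TAIR10.1.
PORA: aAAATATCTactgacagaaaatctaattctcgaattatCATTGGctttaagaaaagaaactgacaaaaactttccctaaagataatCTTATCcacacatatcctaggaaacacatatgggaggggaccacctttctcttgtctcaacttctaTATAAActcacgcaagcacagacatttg
PORB: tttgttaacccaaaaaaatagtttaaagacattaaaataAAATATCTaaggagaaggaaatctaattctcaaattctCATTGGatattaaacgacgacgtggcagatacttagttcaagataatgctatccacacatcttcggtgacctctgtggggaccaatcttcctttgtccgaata
AAATATCT occurred once before PORA, from base 179 to base 172 before the start, and once before PORB, from base 141 to base 134. It did not occur in the PORC window, and 5.80% of 26685 windows of the same length held it. The motif CCAATG occurred once before each gene, on the opposite strand, and in 11.2% of windows. The I-box, ATGTA and the TATA-box letters each occurred before PORA but not before PORB or PORC, and were found in 14.6%, 58.4% and 53.3% of windows. None of the 3 windows held the G-box (7.38% of windows) or the E-box (13.0%). The longest run that the PORA and PORB windows shared was aaatctaattctc, 13 bases that lie between the evening element core and the CCAAT motif in both. The PORB window overlapped the span of AT4G27435 in 114 bases, outside the printed stretch. The PORC window lay wholly within the span of AT1G03620 and is not printed. A match is a run of letters and not a measured binding site.

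Most other genes of chlorophyll synthesis had higher values in red light. Of 23 genes from glutamyl-tRNA reductase to chlorophyll a oxygenase and geranylgeranyl reductase, 11 were called higher in red light (beside 8.69% of all genes), 0 lower and 12 not called, and their median log2 change was 0.74, with 20 of 23 above 0. Where a pair of RPKM values is given below, the dark value comes first. The lowest log2 change among the 23 was -0.55 (HEMA2), so PORA and PORB were the only 2 of the 26 genes, PORs included, to be called lower. With 5.35% of all genes called lower, nothing is read from that count. PORC, with 3.13, and GUN4, the highest of the list with 3.15, lay close together, and their order turned with a pseudocount of 0.1 (3.25 and 3.16) and under quantile normalization (3.16 and 3.14).

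At the start of the pathway HEMA1, the glutamyl-tRNA reductase that sets the supply of 5-aminolevulinic acid (ALA), rose 7.01-fold from 80.4 to 564 RPKM. HEMA2, its second copy, was at 28.2 and 19.0 RPKM and was not called. GSA1, at 45.1 and 42.4 RPKM, and GSA2, at 41.6 and 69.0 RPKM, were not called either. From ALA to protoporphyrin IX, all 7 genes had log2 changes above 0 and 3 were called higher. These were HEMC, porphobilinogen deaminase, 2.67-fold, and HEME1 and HEME2, uroporphyrinogen decarboxylases, 2.82-fold and 2.70-fold. HEMB1, HEMD, HEMF1 and PPO1 were not called, with log2 changes of 0.30, 0.28, 0.17 and 0.60. At magnesium chelatase, which commits protoporphyrin to chlorophyll, all 5 genes had log2 changes above 0 and 4 were called higher. CHLH, the large subunit, rose 5.73-fold to 535 RPKM, CHLI1 3.82-fold and CHLI2 3.07-fold. GUN4, the activator of the chelatase, rose 8.98-fold to 537 RPKM, but another annotated gene spans 100% of its coding sequence, so its reads are uncertain. CHLD, the remaining chelatase subunit, was at 61.3 and 85.1 RPKM and was not called.

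The steps on either side of the POR reaction show the family against its neighbours. CRD1, the cyclase that makes the protochlorophyllide ring, rose 3.25-fold from 297 to 964 RPKM. DVR, the divinyl reductase, rose 5.45-fold from 10.6 to 57.9 RPKM. CHLM, at 330 and 502 RPKM, and YCF54, at 81.4 and 137 RPKM, were not called. Of the 4 genes between magnesium chelatase and POR, 2 were thus called higher and 2 not called. CHLG, chlorophyll synthase, which joins phytol to the POR product, was at 47.7 and 58.5 RPKM and was not called. CAO, which makes chlorophyll b, rose 8.41-fold to 199.7 RPKM, and CHLP, the reductase that supplies phytol, was at 1877 and 1703 RPKM. The ratio of summed POR to CRD1 RPKM was 5.78 in darkness (5.68 to 5.88) and 0.350 in red light (0.343 to 0.357). To CHLG it was 36.0 in darkness and 5.77 in red light. The PORs thus held 32.3% of the summed RPKM of the 26 genes in darkness and 4.82% in red light, where PORA had moved from the 2nd to the 22nd highest level, PORB from the 3rd to the 10th and PORC from the 25th to the 14th.

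**Figure D5:**
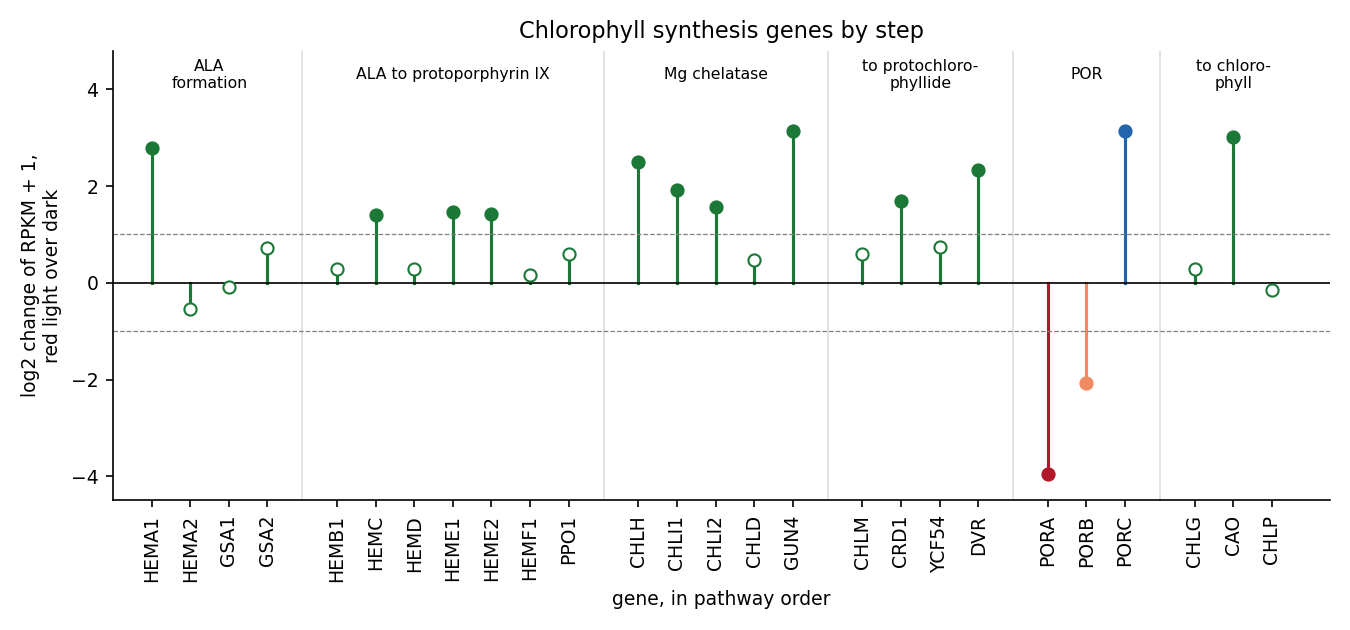
Log2 change of RPKM + 1 (red light over dark) for 26 chlorophyll synthesis genes in pathway order; filled points are called at a 2-fold difference (dashed lines at -1 and 1) and open points are not. PORA (-3.96) and PORB (-2.07) are the only filled points below 0.

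Genes linked to POR stability, import or pathway feedback, here called POR partners, showed smaller differences than the PORs. Of 6 such genes, 1 was called higher, 1 lower and 4 not called (median log2 change -0.46), beside 8.69% higher and 5.35% lower among all genes. With so few genes nothing is read from these counts. LIL3:1 and LIL3:2, light-harvesting-like membrane proteins that bind POR and geranylgeranyl reductase, went opposite ways. LIL3:2, the more abundant, fell 2.27-fold from 986 to 435 RPKM, and LIL3:1 rose 2.096-fold (1.99 to 2.21) from 70.3 to 147 RPKM, an interval that reaches below the 2-fold threshold. CPP1, a chaperone-like protein that stabilises POR, stood at 174 and 124 RPKM, and FLU, which represses ALA synthesis in darkness, at 105 and 76.9 RPKM. OEP16-1, an outer envelope channel studied for PORA import, was at 101 and 69.8 RPKM, and GBP, which tethers glutamyl-tRNA reductase to the membrane, at 31.6 and 57.4 RPKM.

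Of 11 transcription factors reported to act on POR genes or on greening, 2 were called higher, 1 lower and 8 not called (median log2 change 0.32), beside the same shares of all genes, and nothing is read from these counts either. EIN3 and EIL1, ethylene-response factors reported to bind the PORA and PORB promoters, were not called. EIN3 stood at 225 RPKM in the dark against 115 RPKM under red light, a 1.95-fold difference just under the threshold, and EIL1 at 72.7 and 55.6 RPKM. PIF3, a repressor of greening in darkness, fell 2.70-fold from 46.9 to 17.4 RPKM, and its relative PIF1, reported to bind the PORC promoter, was at 17.7 and 29.7 RPKM. GLK1 and GLK2, activators of chloroplast genes, rose 3.44-fold to 47.7 RPKM and 4.61-fold to 183 RPKM. RVE1, a clock-related factor reported to bind the PORA promoter, was at 19.5 and 36.6 RPKM, and HY5, a regulator of light responses, at 79.6 and 139 RPKM. The GRAS proteins SCL6, SCL22 and SCL27, of which SCL27 is reported to repress PORC, were not called, with log2 changes of -0.77, 0.28 and 0.32. Transcript levels do not measure the activity of these proteins.

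Of 3 other plastid short-chain dehydrogenases, none was called, beside 8.69% higher and 5.35% lower among all genes. With so few genes nothing is read from this count. TIC32, of the import machinery, which shares 12.9% of its coding words of 31 bases with another gene, was at 31.9 and 34.4 RPKM, NYC1, a chlorophyll b reductase, at 114 and 157 RPKM, and its relative NOL at 10.8 and 9.72 RPKM.

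The genes nearest to each member were found by distance in log2(RPKM + 1) over the 2 columns, which is little to measure likeness by. Nearest to PORA were ASN1, a dark-induced asparagine synthetase, at 718 and 45.9 RPKM (distance 0.396), SIS (AT5G02020) at 552 and 59.6 RPKM, and SEN1, a dark-induced senescence marker, at 1243 and 77.5 RPKM. ASN1 was the only gene within 0.5 of PORA. Nearest to PORB were SAG20 at 892 and 195 RPKM (distance 0.108), AT5G43570 and MEE59, and 6 genes lay within 0.5. Nearest to PORC, with 25 genes within 0.5, were AT4G33610 at 9.02 and 86.2 RPKM (distance 0.0119), PnsB1, a subunit of the chloroplast NDH complex, at 9.04 and 80.2 RPKM, and SPS2, a solanesyl diphosphate synthase, at 9.51 and 77.3 RPKM.

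The dark column summed 41106535 reads, 1.23 times the 33521717 of the red-light column. At the coding length of PORB 3 reads correspond to 0.0605 RPKM in the dark column and 0.0742 RPKM under red light, far below every POR value. All 7 seed storage and oil body genes were below 10 RPKM in both columns, none was at 0, and their sum was 2.49 RPKM in the dark column against 25.2 RPKM under red light, 10.1 times as large. All 7 were higher under red light, from 2.45-fold for SESA4 (11 and 22 reads) to 63.4-fold for CRU3 (7 and 362 reads). The ratio of the sums joins unlike genes with few dark reads each. The defining member of these genes, CRA1, a 12S globulin, was at 0.411 and 9.10 RPKM. The 5 root hair genes summed to 69.4 and 48.5 RPKM, of which PRP3 held 40.7 and 26.2 RPKM. All 5 were lower under red light, but the interval of the EXPA18 ratio, 0.928 (0.780 to 1.10), includes no change. Of the 5 root hair genes, 4 were below 10 RPKM in both columns and 0 were called. The part of either in the POR differences was not tested.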

How the data were processed

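RNA of 4 Arabidopsis seedling samples, 2 per condition, was sequenced. Per the file headers, the authors deposited reads and RPKM for each condition over 27416 gene models. The authors' estimated counts hold only whole numbers and, for genes without a read, 0.5 (4059 genes in darkness, 4164 in red light). These were set to 0 here, with their RPKM. The deposited RPKM equalled reads per implied length and per total of the whole reads. The implied lengths are whole to within 0.01 bases and 99.99% divide by 3, so they hold no untranslated regions. The submitters' processing notes name the build TAIR10. The aligner, the counter, any strand setting and the handling of multiply matching reads were not given in the sources used here.

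No test over samples was possible with 1 column per condition, so edgeR's quasi-likelihood test was not run. Calls required 2-fold on RPKM + 1 and 10 RPKM or more in the higher condition. Calling was checked on simulated reads that held counting error only. That check covers neither variation between samples nor changes near 2-fold. The members, lists and tests were chosen with earlier results of these data known. Named genes were the 3 PORs, all members of the lists other than the marker lists, and the 3 genes nearest to each POR. AT1G03620, AT4G27450 and AT4G27435 were named because they overlap a POR gene or the window before it. CRA1, CRU3, SESA4, PRP3 and EXPA18 were named as markers. Gene models and sequences came from RefSeq's TAIR10.1 annotation, which matched 26691 of 27416 models by transcript identifier, 96.6% with equal coding length. Protein identities came from global alignments of translated coding sequences (BLOSUM62). PCR reads without molecular identifiers are not independent. The intervals treat them as independent, so they may be too narrow even for counting error. Alternatives used edgeR 4.0.16 (TMM and upper-quartile factors), DESeq2 1.42.0 (size factors), quantile normalization, and other totals, pseudocounts, minimums, thresholds and lengths. Other software was R 4.3.3 and Python 3.11.15 with biopython 1.88, matplotlib 3.10.9, scipy 1.17.1, pandas 2.3.3 and numpy 2.4.6.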

Additional observations from a re-analysis of the deposited data

How the results depend on the processing

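The calls of PORA, PORB and PORC kept their direction and their side of the threshold under all 10 alternatives of scaling, pseudocount, minimum and threshold. Dropping the minimum could not have removed a call. The settings of minimum, threshold and counting interval leave the log2 change itself as it was. Over the other settings it ranged from -4.09 to -3.89 for PORA, from -2.18 to -2.00 for PORB and from 3.13 to 3.25 for PORC. The red-to-dark ratio was 0.147 for the summed reads of PORA and PORB and 0.196 for all 3. TMM factors moved the median log2 change of the 12625 genes of at least 10 RPKM by 0.07, and no scaling moved it further. No paired analysis was possible because each condition has 1 column, and leaving out a replicate was not possible for the same reason.

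With a 4-fold threshold 5 chlorophyll pathway genes were called higher, 0 POR partners were called higher or lower, and 1 POR regulator was called higher and 0 lower. Over all genes it called 398 higher and 124 lower, against 1097 and 676. A minimum of 50 RPKM left 521 and 369 calls, but among only 4388 genes that could be called, against 12625. Under this minimum 1 POR regulator was called higher and 0 lower. Asking the whole counting interval to lie beyond 2-fold left 0 POR partners higher and 1 lower, and 11 chlorophyll pathway genes higher. Over all genes that rule called 996 higher and 562 lower. Fewer calls follow from the stricter rules themselves.

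Scaling to transcript length with untranslated regions, in place of coding length, kept the order of PORA, PORB and PORC within each column and their places among the 26 pathway genes, except that PORC went from place 14 to place 16 in red light. Places of other pathway genes moved. The PORA, PORB and PORC shares became 52.5%, 47.1% and 0.467% in darkness, and in red light PORA became 17.5% and PORC 23.7%. The ratio of PORA to PORB became 1.11 in darkness and 0.298 in red light. The ratio of PORC to PORA became 0.00890 and 1.36, and that of PORC to PORB 0.404 in red light. The ratio of summed PORs became 5.29 and 0.309 to CRD1, 5.37 in red light to DVR, and 40.3 and 6.22 to CHLG.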
